A study of Rattus norvegicus with 12 samples.

Results

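Chemokines are small secreted proteins that call leukocytes into tissues, and this account covers the genes for chemokines and their receptors in the liver of obese rats, with or without an oyster mushroom product in the diet. A gene was a member when the array annotation gave a transcript cluster exactly 1 symbol and that symbol began with Ccl, Cxcl, Cx3cl, Xcl, Ccr, Cxcr, Cx3cr, Xcr or Ackr followed by a digit. This gave 54 genes of 18166 tested, each with 1 transcript cluster, and no member was left out by a filter on low values. Of the 54, 17 had a mean log2 signal below 4.4 over the 12 arrays and are called dim, and 37 lay at 4.4 or above. Ccl17, with a mean of 4.397, was the brightest dim member, and Ccr10, at 4.41, lay just over the bound.

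All 12 rats were obese male Zucker rats of the stock Crl:ZUC-Leprfa, fa/fa homozygotes that lack a working leptin receptor, and were 5 to 6 weeks old at the start. Both diets were thus eaten by obese animals, and no lean rats were in the comparison. The 6 control rats ate an unsupplemented diet and the 6 PSC rats a diet of similar energy and nutrients with 5% PSC, a name the labels do not spell out. PSC was grown on a side stream of agriculture, and the series title speaks of an oyster mushroom made by biotechnology. Feeding lasted 4 weeks, the rats were killed on day 29, and total liver RNA of 1 rat was hybridised to each Affymetrix Rat Gene 2.0 ST array. The 6 rats of each diet were drawn at random from 12, and rats were kept 2 to a cage without the cages being named in the labels.

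Chemokines are named by the spacing of their first cysteines (CC, CXC, CX3C and C families) and act through G protein-coupled receptors on migrating cells. Inflammatory ligands are switched on by signals such as NF-kB and interferon, whereas homeostatic ligands are made steadily and place cells within tissues. Atypical receptors bind chemokines without G protein signalling and remove or store them. In liver, Kupffer cells, sinusoidal endothelium, stellate cells and hepatocytes can all make chemokines, which draw monocytes, neutrophils, T cells, NK cells and B cells.

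Array medians of the log2 signal lay between 4.71 and 4.85, and arrays correlated with each other at 0.986 to 0.994 across clusters. The hepatocyte genes Alb and Ttr were at or above 13.11 and 12.54 on every array, as fits the labelled tissue. Control replicates 1 and 4 were the highest controls for several inflammatory ligands, and PSC replicate 4 lay nearest to the controls for Ccl6, Cxcl16 and Cxcl13. Signals of different genes come from different probes, so their levels are not compared. The neighbour pairs below use only the change, between the diets, of a within-array difference. The arrays give no detection calls, so absence of a transcript cannot be stated, and the number of arrays limits the precision.

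The promoters of 7 members described below are shown. These are the promoters of Cxcl1 and its relatives Cxcl2 and Cxcl6, of Cxcl10 and its neighbour Cxcl9, and of Cxcl12 and Ccl6, which passed the test. Each is the 250 bases before the gene start in RefSeq (build GRCr8), written 5′ to 3′ on the gene's strand, with capitals marking matches to the NF-kB consensus or to the interferon response motif (GAAA, any 2 bases, GAAA), both searched on both strands. The positions are chr14:17479322-17479571 (minus strand) for Cxcl1, chr14:17467256-17467505 (minus) for Cxcl2 and chr14:17596418-17596667 (minus) for Cxcl6. They are chr14:16006916-16007165 (plus) for Cxcl9, chr14:15988816-15989065 (plus) for Cxcl10, chr4:152060531-152060780 (plus) for Cxcl12 and chr10:68883367-68883616 (minus) for Ccl6.
Cxcl1: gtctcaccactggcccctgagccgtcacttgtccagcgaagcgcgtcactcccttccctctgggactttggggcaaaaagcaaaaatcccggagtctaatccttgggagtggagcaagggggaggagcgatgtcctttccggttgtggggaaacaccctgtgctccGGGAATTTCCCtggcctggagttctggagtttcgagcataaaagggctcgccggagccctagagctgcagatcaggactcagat
Cxcl2: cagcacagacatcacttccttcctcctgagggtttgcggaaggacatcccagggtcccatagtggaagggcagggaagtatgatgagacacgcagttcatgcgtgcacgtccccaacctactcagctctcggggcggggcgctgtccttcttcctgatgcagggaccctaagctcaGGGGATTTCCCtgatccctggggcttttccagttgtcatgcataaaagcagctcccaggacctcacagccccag
Cxcl6: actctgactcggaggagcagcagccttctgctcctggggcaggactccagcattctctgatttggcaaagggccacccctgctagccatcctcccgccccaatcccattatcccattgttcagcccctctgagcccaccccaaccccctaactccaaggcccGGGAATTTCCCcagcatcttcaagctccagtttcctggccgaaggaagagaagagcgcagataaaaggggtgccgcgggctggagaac
Cxcl9: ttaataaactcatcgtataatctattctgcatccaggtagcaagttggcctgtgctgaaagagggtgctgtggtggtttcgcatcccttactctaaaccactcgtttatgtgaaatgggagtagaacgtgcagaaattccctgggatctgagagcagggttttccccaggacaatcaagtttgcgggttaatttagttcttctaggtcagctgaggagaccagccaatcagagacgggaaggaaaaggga
Cxcl10: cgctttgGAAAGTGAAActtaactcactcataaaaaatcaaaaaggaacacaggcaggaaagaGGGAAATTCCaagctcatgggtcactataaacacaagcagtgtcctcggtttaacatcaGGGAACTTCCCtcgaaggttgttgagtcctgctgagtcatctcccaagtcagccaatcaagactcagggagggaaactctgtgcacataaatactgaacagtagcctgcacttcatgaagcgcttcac
Cxcl12: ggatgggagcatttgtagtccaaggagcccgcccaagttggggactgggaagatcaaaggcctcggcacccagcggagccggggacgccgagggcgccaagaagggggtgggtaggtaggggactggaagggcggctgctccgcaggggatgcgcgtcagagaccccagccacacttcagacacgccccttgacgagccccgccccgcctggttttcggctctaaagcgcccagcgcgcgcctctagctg
Ccl6: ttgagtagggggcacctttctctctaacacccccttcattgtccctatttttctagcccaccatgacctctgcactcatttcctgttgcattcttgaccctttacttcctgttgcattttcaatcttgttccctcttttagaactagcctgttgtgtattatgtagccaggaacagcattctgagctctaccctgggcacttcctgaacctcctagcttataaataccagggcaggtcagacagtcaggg

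The NF-kB matches of Cxcl1 and Cxcl6 are the same run of letters, starting 84 and 88 bases before the gene start, and Cxcl2 has a near copy starting 74 bases before it. Because the consensus nearly equals its own reverse complement, these runs hold overlapping matches on both strands. In Cxcl10, matches start 187 and 128 bases before the start, and an interferon response motif 243 bases before it. Of the 42 members matched to a RefSeq promoter by symbol, 9 held the NF-kB consensus (21.4%), against 6.33% of 33469 promoters of the same length. These 9 were Cxcl1, Cxcl2, Cxcl6, Cxcl10, Cxcl11, Ccl7, Ccl9, Ccl20 and Ccr3. The interferon response motif was present in 2 of the 42 (4.76%), Cxcl10 and Ccl19, and in 3.41% of all promoters. A match describes the letters of the window and is not a measured site. Unequal change of Cxcl1 and Cxcl2 did not pass (exact permutation, adjusted p = 0.178), and Cxcl1 against Cxcl6 was not tested.

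Between the diets, Cxcl12 and Ccl6 rose in the liver of PSC-fed rats, by 1.38-fold and 1.44-fold, and no member passed the test as lower. Cxcl12 encodes the ligand that keeps haematopoietic cells in place and draws lymphocytes, and Ccl6 a CC chemokine of macrophages found in rodents. Cxcl1, Cxcl16 and Ccl5 came next with adjusted p between 0.0599 and 0.065, Cxcl1 and Cxcl16 with lower and Ccl5 with higher signals in PSC-fed rats. The 2 calls among 54 members (3.7%) stood beside 2.6% of all 18166 genes called in either direction, and beside 0.716% called higher and 1.89% called lower (limma, Benjamini-Hochberg over all genes, adjusted p below 0.05). At an unadjusted p below 0.05 there were 13 of 54 members (24.1%), 7 higher and 6 lower, against 19.1% of all genes, 9.02% higher and 10.1% lower. Both shares of members were close to those of all genes, and no statement about the class as a whole rests on them. Without control replicates 1 and 4, an alternative added after seeing the data, limma called 0 members and 25 of all genes, with Cxcl12 at 0.54 and Ccl6 at 0.43 (adjusted p = 0.103 and 0.133).

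**Figure D1:**
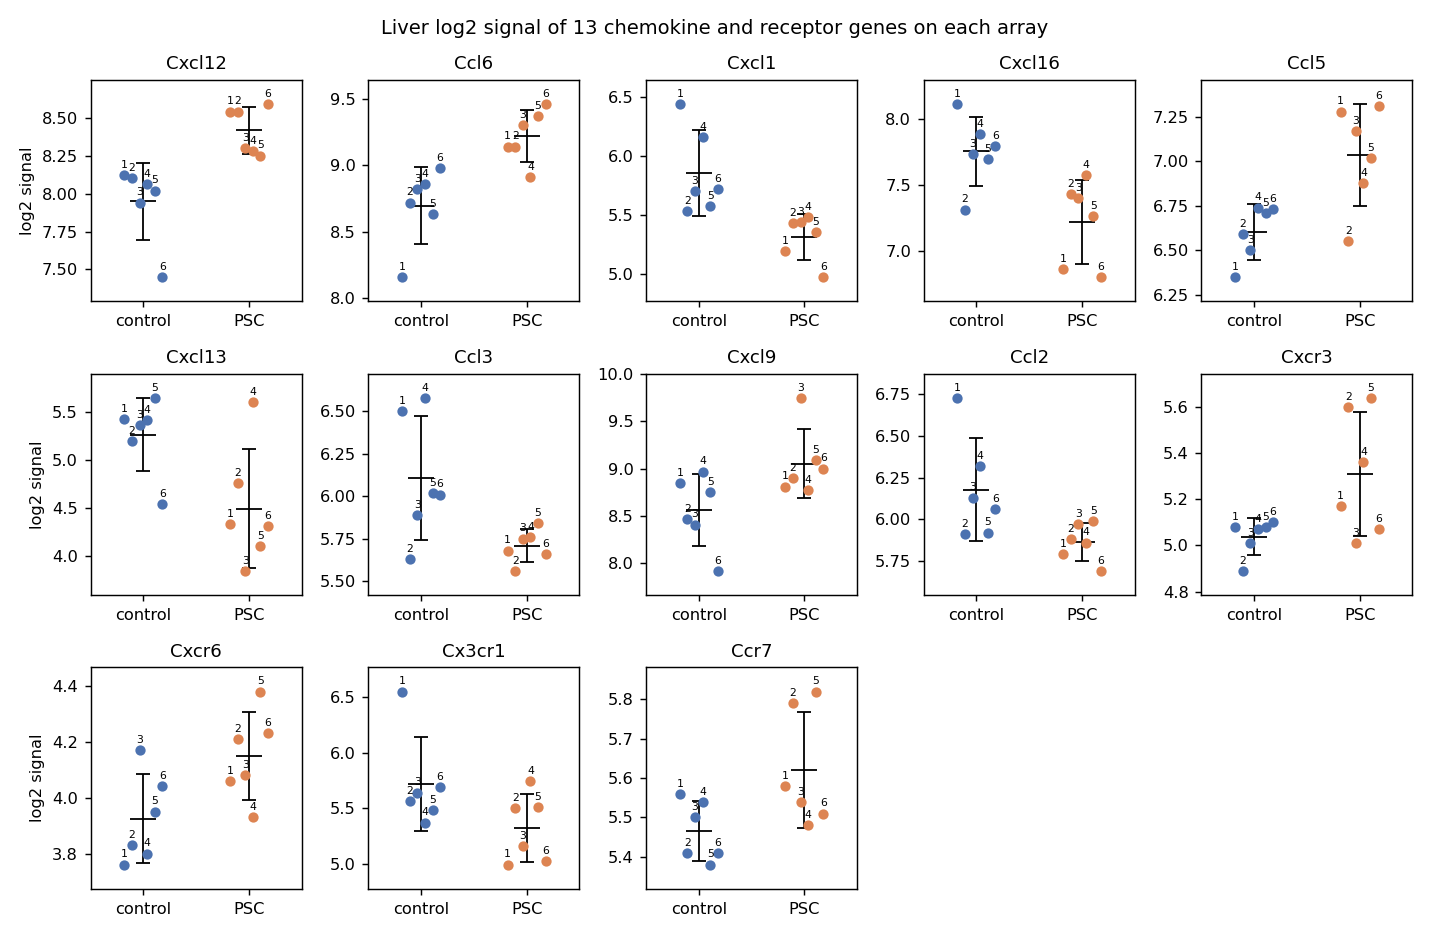
Log2 signal on each array for the 13 members with an unadjusted p below 0.05, control arrays in blue and PSC arrays in orange, with replicate numbers beside the points, sideways spacing without meaning, and bars for the mean and SD (n = 6). The diets do not overlap for Cxcl12 (controls up to 8.12, PSC from 8.25) and Cxcl1 (controls from 5.53, PSC up to 5.48).

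The diets did not overlap for 2 members, Cxcl12 with higher and Cxcl1 with lower PSC values, which is 3.7% of the members beside 2.19% of all genes (0.71% higher and 1.48% lower). Over the 54 members the median log2 difference was 0.019, and over all genes 0.013. Differences ran from -0.78 (Cxcl13) to 0.53 (Ccl6). Above 0 were 29 members and below 0 were 25, a split that turned to 21 above 0 when arrays were centred on their medians and to 22 after cyclic loess.

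The members that were not dim carried nearly all of the small p-values. Among the 37 brighter members 12 had an unadjusted p below 0.05 (32.4%), 6 in each direction, beside 22% of the 12207 brighter genes of the array (8.02% higher and 14% lower). Among the 17 dim members 1 did (5.88%), the receptor gene Cxcr6, beside 13.2% of 5959 dim genes (11.1% higher). The median absolute difference was 0.058 in dim members and 0.11 in the others. For all dim and all other genes it was 0.092 and 0.090. Dim members had a median difference of -0.015, where dim genes in general had 0.063. These are descriptions with no test.

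**Figure D2:**
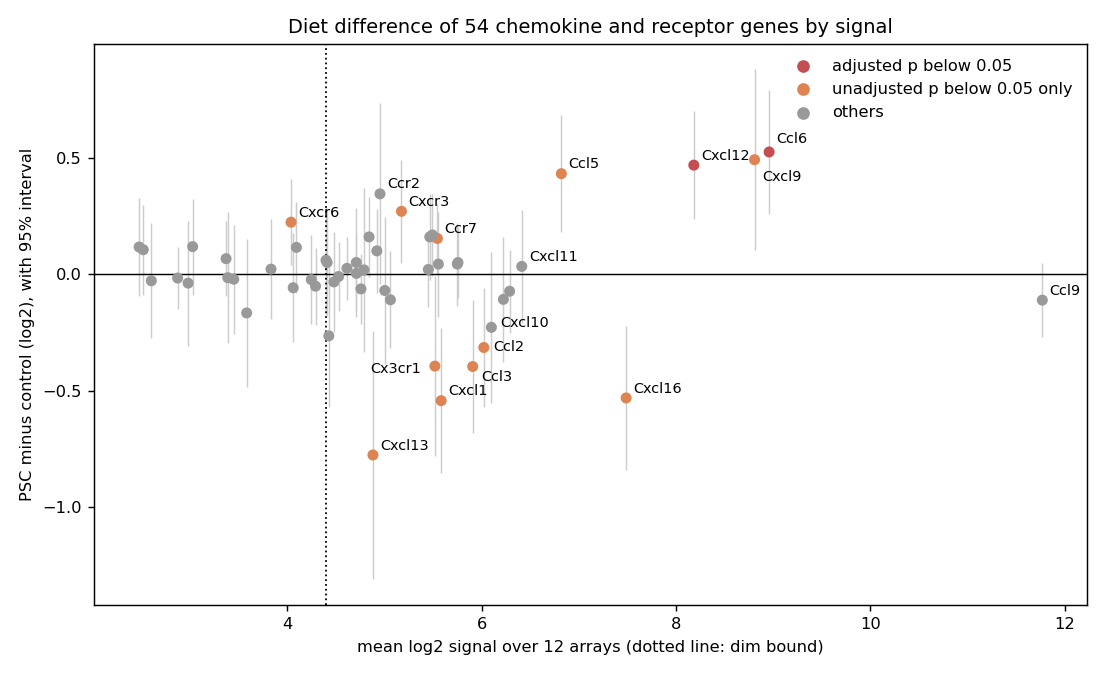
Difference between the diets (PSC minus control, log2, with the 95% interval of the limma fit) against the mean log2 signal over the 12 arrays, for 54 members. Red points are Cxcl12 and Ccl6, orange points the 11 other members with an unadjusted p below 0.05, and left of the dotted line at 4.4 only Cxcr6 is orange.

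Cxcl12 is described first among the ligands. Its log2 signal lay between 7.45 and 8.12 (median 8.04) in controls and between 8.25 and 8.59 (median 8.42) in PSC-fed rats. Every PSC array was above every control, and control replicate 6 lay far below the other controls. The means were 7.95 ± 0.25 and 8.42 ± 0.16 (SD, n = 6), a difference of 0.47 (SE 0.11, adjusted p = 0.0373). The signalling receptor gene Cxcr4 went from 5.12 ± 0.09 to 5.01 ± 0.24, with a difference of -0.11 and a 95% interval from -0.32 to 0.10. Ackr3, the atypical receptor that takes up CXCL12, had -0.07 (interval -0.25 to 0.11), between 6.20 and 6.49 in controls and between 5.95 and 6.44 in PSC-fed rats.

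Stromal and endothelial cells are known sources of CXCL12. Of 11 measured stellate cell and fibroblast markers all had values below 0, 4 fell (Dcn, Col1a2, Tagln and Col3a1), and the list's median difference was -0.34. Of all genes 1.89% were called lower, and 8383 of 18166 had values below 0 (6678 of the 12207 that were not dim). Dcn and Col1a2 passed in 12 of 12 fits that left out 1 array, Tagln in 11 and Col3a1 in 2. Their mean level ran from 6.75 to 7.03 in controls and from 6.39 to 6.75 in PSC-fed rats. Of 7 sinusoidal endothelial markers none passed, 2 (Stab1 and Lyve1) had an unadjusted p below 0.05 with higher values, and the mean level ran from 7.36 to 7.55 in controls and from 7.47 to 7.69 in PSC-fed rats. Their part in the Cxcl12 result was not tested, and in whole liver more cells of a type and more RNA per cell cannot be told apart.

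The call for Cxcl12 rested on many arrays. Its adjusted p was 0.0625, 0.0666, 0.0618 and 0.0561 without control replicates 1, 3, 4 and 5. It was 0.0715, 0.0629, 0.0528 and 0.0826 without PSC replicates 1, 2, 5 and 6. The difference stayed between 0.37 and 0.50 whichever array was left out.

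Among the inflammatory CC ligands, Ccl6 was the member that rose. Control signals ran from 8.16 to 8.98 (median 8.77) and PSC signals from 8.91 to 9.46 (median 9.22). PSC replicate 4, the lowest of its diet, lay below control replicate 6, and the other 5 PSC arrays were above every control. The means were 8.70 ± 0.29 and 9.22 ± 0.20 (SD, n = 6), a difference of 0.53 (SE 0.13, adjusted p = 0.0389). Control replicate 1 was the lowest array, and the difference was 0.42 without it. The adjusted p of Ccl6 was 0.0647, 0.0544, 0.0606, 0.0621 and 0.0726 without control replicates 1, 2, 3, 4 and 5. It was 0.0646, 0.0555, 0.067, 0.0862 and 0.0881 without PSC replicates 1, 2, 3, 5 and 6.

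Kupffer cell markers were measured in the same livers. Of 14 measured markers 1 rose, the haemoglobin scavenger receptor gene Cd163 (not past the threshold in 8 of 12 fits that left out 1 array). Of all genes 0.716% were called higher. An unadjusted limma p below 0.05 was found for 9, all higher, beside 9.02% of all genes and 8.02% of those that were not dim. The median difference of the 14 was 0.34, and their mean level ran from 6.50 to 7.40 in controls and from 7.28 to 7.60 in PSC-fed rats. Control replicate 1 was the lowest array for these markers, at 6.50, as it was for Ccl6. Of 12 markers of monocytes and recruited macrophages, 2 fell (Mmp12 and Spp1), beside 1.89% of all genes called lower. Values below 0 were found for 10, beside 6678 of the 12207 genes that were not dim. The mean level of the 12 ran from 6.20 to 6.70 in controls and from 6.06 to 6.27 in PSC-fed rats. Mmp12 passed in 12 of 12 fits that left out 1 array and Spp1, also listed as a bile duct marker, in 8. Without control replicates 1 and 4 neither passed (limma, adjusted p = 0.101 for each). The part of Kupffer cells or recruited macrophages in the Ccl6 result was not tested.

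Ccl5, which draws T cells, NK cells and monocytes, had higher signals that did not pass. Controls lay between 6.35 and 6.74 (median 6.65) and PSC-fed rats between 6.55 and 7.31 (median 7.10). PSC replicate 2 lay within the controls and the other 5 PSC arrays above all of them. The difference was 0.43 (SE 0.12, adjusted p = 0.065), and without PSC replicate 2 it was 0.53 with an adjusted p of 0.0142. In the other 11 fits that left out 1 array it did not pass, with an adjusted p of up to 0.147 and a difference down to 0.38. With all arrays, Ccl5 passed after quantile normalization again, after cyclic loess, with array weights, with a trended prior and among genes of mean log2 4.4 or more. It did not pass with arrays centred on their medians or with all transcript clusters tested.

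Ccl2 and Ccl3 had lower values in PSC-fed rats that did not pass the test. Ccl2, the main ligand of the monocyte receptor Ccr2, lay between 5.91 and 6.73 (median 6.10) in controls and between 5.69 and 5.99 (median 5.87) in PSC-fed rats, a difference of -0.32 (SE 0.12, adjusted p = 0.166). Ccl3, a macrophage product that binds Ccr1, lay between 5.63 and 6.58 (median 6.02) and between 5.56 and 5.84 (median 5.72), a difference of -0.40 (SE 0.13, adjusted p = 0.127). Every PSC array was below the control median for both genes, and the spread was wide in controls (SD 0.31 and 0.37) and narrow in PSC-fed rats (SD 0.11 and 0.10). Control replicates 1 and 4 stood highest, at 6.73 and 6.32 for Ccl2 and at 6.50 and 6.58 for Ccl3. Without that pair of arrays, an alternative added after seeing the data, the differences were -0.14 and -0.18. The adjusted p of Ccl3 was 0.0423 without control replicate 2, its lowest control, and did not pass in the other 11 fits that left out 1 array (up to 0.248).

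Ccl9, a ligand of Ccr1 found in rodents, varied little, with all 12 arrays within 0.41. Its signal lay between 11.58 and 11.99 in controls and between 11.64 and 11.89 in PSC-fed rats, a difference of -0.11 (95% interval -0.27 to 0.05). Ccl12, another Ccr2 ligand, had -0.27 (interval -0.57 to 0.04), with control replicate 6 at 5.23 above all other arrays. The remaining 9 ligands of this class had differences from -0.07 (Ccl4) to 0.16 (Ccl22), and adjusted p of 0.301 or more. They were Ccl1, Ccl4, Ccl7, Ccl11, Ccl17, Ccl20, Ccl22, Ccl24 and Ccl26, of which Ccl1, Ccl7, Ccl11, Ccl17 and Ccl26 were dim.

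The 5 homeostatic CC ligands, which guide lymphocytes to lymphoid tissue, gut and skin, showed the smallest range of any ligand class. Their differences ran from 0.0033 (Ccl19) to 0.05 (Ccl27 and Ccl21), with unadjusted p of 0.498 or more. Ccl27 lay between 5.64 and 5.80 in controls and between 5.56 and 6.03 in PSC-fed rats. Ccl25 lay between 5.22 and 5.63 and between 5.35 and 5.65. Their 95% intervals were -0.10 to 0.20 and -0.14 to 0.18.

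Of the neutrophil-attracting CXC ligands, which act through Cxcr2, Cxcl1 had the lowest p. It lay between 5.53 and 6.44 (median 5.71) in controls and between 4.97 and 5.48 (median 5.39) in PSC-fed rats, below every control. The difference was -0.54 (SE 0.15, adjusted p = 0.0599), or 1.46-fold. Control replicates 1 and 4, at 6.44 and 6.16, were again the highest, and without them the difference was -0.32 (adjusted p = 0.211). The adjusted p was 0.0424 without control replicate 2 and 0.0374 with arrays centred on their medians. It stayed above the threshold in the other 11 fits that left out 1 array, up to 0.129. Cxcl2, whose promoter holds the near copy of the NF-kB run shown for Cxcl1, lay between 4.22 and 4.78 in controls and between 4.16 and 4.75 in PSC-fed rats, a difference of -0.03 (95% interval -0.25 to 0.18). The dim members Cxcl3 and Cxcl6 had -0.02 and -0.06.

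The neutrophil receptors Cxcr1 and Cxcr2 were dim and had 0.07 (interval -0.09 to 0.23) and -0.02 (interval -0.30 to 0.27). Of 10 neutrophil markers none passed the limma test, 1 (S100a8, -0.18) had an unadjusted p below 0.05, and 5 were dim. Their mean level ran from 3.98 to 4.18 in controls and from 3.96 to 4.13 in PSC-fed rats.

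The interferon-induced ligands share the receptor Cxcr3 of T and NK cells, and their values had different signs. Cxcl9 lay between 7.92 and 8.97 (median 8.61) in controls and between 8.77 and 9.75 (median 8.95) in PSC-fed rats. The difference was 0.49 (SE 0.18, adjusted p = 0.157), with PSC replicate 3 far above the rest of its diet. Control replicate 6 was the lowest control, with the next at 8.41. Cxcl10 lay between 5.84 and 6.69 (median 6.09) and between 5.54 and 6.22 (median 6.10), a difference of -0.23 (95% interval -0.55 to 0.10). Control replicates 1 and 4 were again its highest controls, at 6.69 and 6.59. Cxcl11 had 0.03 (interval -0.21 to 0.28), between 6.13 and 6.77 in controls and between 6.22 and 6.71 in PSC-fed rats.

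Cxcr3 itself had 0.27 (SE 0.10, adjusted p = 0.173). Controls lay between 4.89 and 5.10 and PSC-fed rats between 5.01 and 5.64, with PSC replicates 5 and 2 highest at 5.64 and 5.60. Of 15 measured markers of T and NK cells 1 rose, the cytotoxic granule gene Nkg7, beside 0.716% of all genes called higher. An unadjusted limma p below 0.05 was found for 5, all higher (Nkg7, Prf1, Klrd1, Gzma and Cd8a), beside 9.02% of all genes. The list's median difference was 0.02, near that of all genes, 4 markers (Cd3g, Cd2, Cd28 and Gzmb) had values below 0, and 8 were dim. Nkg7 did not pass in 4 of 12 fits that left out 1 array (adjusted p up to 0.0699). Their mean level ran from 4.17 to 4.32 in controls and from 4.26 to 4.44 in PSC-fed rats, and their part in the Ccl5, Cxcl9 and Cxcr3 values was not tested.

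Cxcl16 is made as a membrane protein of macrophages and endothelium that binds oxidised lipoprotein and, once shed, attracts cells with Cxcr6, such as NKT cells. It lay between 7.31 and 8.11 (median 7.76) in controls and between 6.80 and 7.57 (median 7.33) in PSC-fed rats. All PSC arrays were below the control median, and 3 of them below every control. The difference was -0.53 (SE 0.15, adjusted p = 0.0644). The adjusted p was 0.0301 without control replicate 2, the lowest control, 0.0345 without PSC replicate 4, the highest PSC array, and 0.0373 with arrays centred on their medians. The other 10 fits that left out 1 array did not pass, with an adjusted p of up to 0.145, and without control replicates 1 and 4, its highest controls, the difference was -0.41 (adjusted p = 0.302). The dim receptor gene Cxcr6 lay between 3.76 and 4.17 in controls and between 3.93 and 4.38 in PSC-fed rats, a difference of 0.22 (SE 0.09, limma adjusted p = 0.178). Ligand and receptor thus had values of opposite sign. Among the ligand and receptor pairs examined, opposite signs were as common as equal signs. These pairs are a chosen list that does not hold every known pair, and many of the differences were small.

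Cxcl13, which draws B cells into follicles through Cxcr5, had the largest difference of the members and the widest spread among PSC-fed rats. Controls lay between 4.54 and 5.65 (median 5.40) and PSC-fed rats between 3.84 and 5.61 (median 4.32). PSC replicate 4, at 5.61, lay among the controls, and control replicate 6, at 4.54, among the PSC-fed rats. The difference was -0.78 (SE 0.25, adjusted p = 0.109), and the adjusted p was 0.0106 without PSC replicate 4. In the other 11 fits that left out 1 array it did not pass, with an adjusted p of up to 0.209 and a difference as small as -0.65. Cxcr5 was dim with -0.05 (interval -0.22 to 0.11). Of 7 measured B cell markers 0 passed the limma test and 6 had an unadjusted p below 0.05, all higher, beside 9.02% of all genes. The mean level of the 7 ran from 4.34 to 4.41 in controls and from 4.55 to 4.74 in PSC-fed rats.

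Of the other ligands, the epithelial chemokines Cxcl14 and Cxcl17 had -0.11 and 0.10, the NK cell product Xcl1 0.04 and the membrane-bound fractalkine gene Cx3cl1 0.02. Their adjusted p were 0.547 or more.

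**Figure D3:**
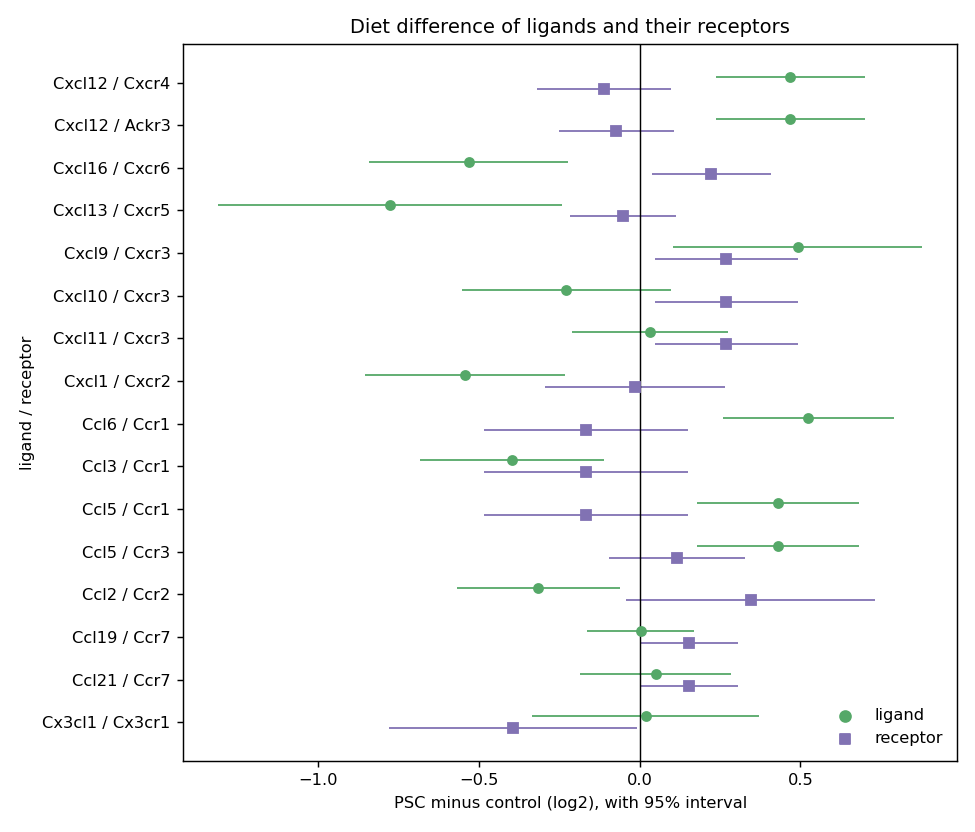
Difference between the diets (PSC minus control, log2, with the 95% interval) for ligands (circles) and their measured receptors (squares), for pairs in which either gene had an unadjusted p below 0.05. Cxcl16 and Cxcr6 lie on opposite sides of 0 (-0.53 and 0.22), and the intervals of Cxcr4 and Ackr3 include 0 while that of their ligand Cxcl12 does not. Over the chosen list of pairs, opposite signs were as common as equal signs.

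No receptor gene passed the test. Of 10 CC receptors none passed the limma test and 6 were dim, and differences ran from -0.17 (Ccr1) to 0.35 (Ccr2). Ccr2, which brings monocytes out of bone marrow and into tissue, lay between 4.35 and 5.50 (median 4.72) in controls and between 4.64 and 5.47 (median 5.22) in PSC-fed rats, with a 95% interval from -0.04 to 0.73. Control replicate 1 was the highest of its diet at 5.50, the other controls lay at 4.86 or below, and the diets overlapped. Its ligands Ccl2 and Ccl12 had the opposite sign, as given above, which was as common as an equal sign in the chosen list of pairs. Ccr7, the receptor that leads T cells and dendritic cells to lymph nodes, lay between 5.38 and 5.56 in controls and between 5.48 and 5.82 in PSC-fed rats, a difference of 0.15 (SE 0.07, adjusted p = 0.256). Ccr1, the receptor of Ccl3, Ccl5, Ccl6 and Ccl9, was dim, with an interval from -0.49 to 0.15. The other 7 (Ccr3, Ccr4, Ccr6, Ccr8, Ccr9, Ccr10 and Ccr1l1) lay between -0.04 and 0.12.

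Cx3cr1, the fractalkine receptor of patrolling monocytes and resident macrophages, lay between 5.37 and 6.55 (median 5.60) in controls and between 4.99 and 5.74 (median 5.33) in PSC-fed rats. The difference was -0.40 (SE 0.18, adjusted p = 0.251), and it was -0.23 without control replicate 1, which at 6.55 stood far above the other controls. Xcr1, a receptor of cross-presenting dendritic cells, had 0.16 (interval -0.03 to 0.35), between 5.17 and 5.52 in controls and between 5.32 and 5.87 in PSC-fed rats. Of 7 dendritic cell markers, which include Xcr1 and Ccl22, 0 passed the limma test and 0 had an unadjusted p below 0.05. Ackr2, an atypical receptor that clears inflammatory CC ligands, had 0.17 (interval -0.01 to 0.34), between 5.22 and 5.60 in controls and between 5.42 and 5.80 in PSC-fed rats.

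Many chemokine genes lie side by side in the genome, and some neighbours changed unequally between the diets. Of 26 pairs of members next to each other in RefSeq order (GRCr8, at most 5 other genes between), 5 did so. This was tested on the within-array difference of the 2 log2 signals by exact two-sided permutation over 924 assignments of the arrays, adjusted over the 26 pairs, and it was chosen after the values were seen. Such a difference shows unequal change and not which gene changed. Whether the probes of the 2 genes respond unequally was not tested.

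On chromosome 10, the log ratio of Ccl6 to Ccl3 rose by 0.92 (exact p = 0.00216, the smallest these assignments can give, adjusted p = 0.0188). That of Ccl9 to Ccl6 changed by -0.64 and, on chromosome 14, that of Cxcl10 to Cxcl9 by -0.72, with the same exact and adjusted p. These 3 kept an adjusted p of 0.0375 or less whichever array was left out. Without control replicates 1 and 4 together their adjusted p were 0.0619, 0.0619 and 0.0825. Without PSC replicates 2 and 5 together the adjusted p of Ccl6 to Ccl3 was 0.124 and that of the other 2 pairs 0.0413. With 2 arrays left out there are fewer assignments, and the smallest exact p they can give is larger than 0.00216. Missing the threshold there thus does not by itself mean a weaker change. Ccl5 minus Ccl9 changed by 0.54 and Cxcl1 minus Cxcl3 by -0.53 (exact permutation, adjusted p = 0.045 for each). Both lost the threshold without most single arrays, 10 and 11 of 12, with adjusted p up to 0.101 and 0.146. Cxcl3 was dim, with a mean log2 signal of 2.87 and all 12 arrays within 0.3. The change of its pair was thus nearly that of Cxcl1 alone (-0.54, beside -0.02 for Cxcl3). Cxcl2 minus Cxcl1, with a change of 0.51, had an exact p of 0.0411 and an adjusted p of 0.178. In the group from Ccl2 to Ccl1 no pair of neighbours passed.

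**Figure D4:**
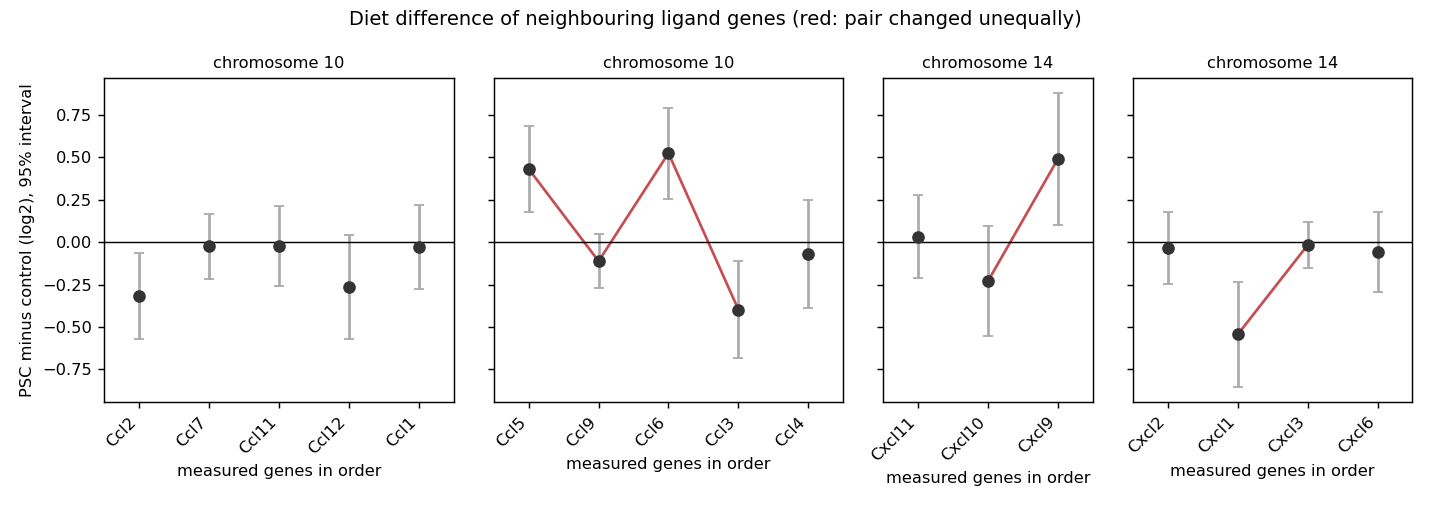
Difference between the diets (PSC minus control, log2, with the 95% interval) of ligand genes in their order on chromosomes 10 and 14 (GRCr8), in 4 groups of neighbours. Red lines join the pairs that changed unequally (adjusted p below 0.05 over 26 pairs), among them Ccl6 at 0.53 beside Ccl3 at -0.40 and Cxcl9 at 0.49 beside Cxcl10 at -0.23. Of the genes joined by red lines, Cxcl3 is dim.

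Among genes for G proteins and receptor kinases, Grk5 and Rgs2 fell, by 0.50 and 0.58 on the log2 scale (SE 0.09 and 0.14, limma adjusted p = 0.0133 and 0.0451). Whether this bears on the chemokine receptors was not tested. Grk5 encodes a kinase that switches off activated receptors and Rgs2 a regulator that ends G protein signalling. They were 2 of 14 measured genes for G proteins, receptor kinases, arrestins and regulators, of which 0 rose and 11 had values below 0 (median -0.06). Of all genes 0.716% were called higher and 1.89% lower, and 8383 of 18166 had values below 0. The migration genes gave 1 higher and 1 lower of 24 (median -0.03): the kinase gene Src rose by 0.33 (adjusted p = 0.0349) and Ptk2b, a calcium-responsive kinase, fell by 0.51 (adjusted p = 0.042). Of 9 adhesion partners 0 passed the limma test, 2 had an unadjusted p below 0.05, and Icam1, the endothelial ligand of leukocyte integrins, had -0.37 (adjusted p = 0.0771). With 1 array left out, Grk5 passed in 12 of 12 fits, Src in 3, and Rgs2 and Ptk2b in 2 each, with adjusted p up to 0.0789 (Src), 0.0956 (Rgs2) and 0.0944 (Ptk2b). Without control replicates 1 and 4 none of these 4 passed limma's test, with Grk5 at an adjusted p of 0.101 and a difference of -0.49.

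Among genes for cytokines and their receptors, Ifngr2, a chain of the interferon gamma receptor, fell by 0.41 (limma adjusted p = 0.0267), and Il17ra, the IL-17 receptor gene, rose by 0.30 (adjusted p = 0.0274). These were 1 each way of 18 cytokine and receptor genes (median 0.0042), in which Il6, Ifng, Il17a, Il4 and Il10 were dim. Relb and Birc3, an NF-kB subunit and a target and regulator of the pathway, fell by 0.40 and 0.36 (adjusted p = 0.0375 and 0.0454). They were 2 of 22 genes of NF-kB and interferon signalling, of which 0 rose and 18 had values below 0 (median -0.14). Of all genes 0.716% were called higher and 1.89% lower, and 6678 of the 12207 that were not dim had values below 0. Lower values with an unadjusted limma p below 0.05 were found for 10, beside 10.1% of all genes and 14% of those that were not dim. Higher values with one were found for 2, Chuk and Irf8, beside 9.02% of all genes and 8.02% of those that were not dim. The mean level of the 22 ran from 6.96 to 7.14 in controls, highest in replicates 1 and 4, and from 6.85 to 6.99 in PSC-fed rats. The part of these genes in the ligand values was not tested. Among chemokine-related genes with other names, Dpp4, a protease that trims and inactivates several chemokines including CXCL12, fell by 0.33 (SE 0.08, adjusted p = 0.0456). It was the one called of 8, and the platelet chemokine genes Pf4 and Ppbp had 0.14 and 0.06. With 1 array left out, Ifngr2 and Il17ra passed in 6 of 12 fits each, Relb and Birc3 in 3 and Dpp4 in 2, and without control replicates 1 and 4 none of them passed (adjusted p from 0.107 for Il17ra to 0.253 for Birc3).

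**Figure D5:**
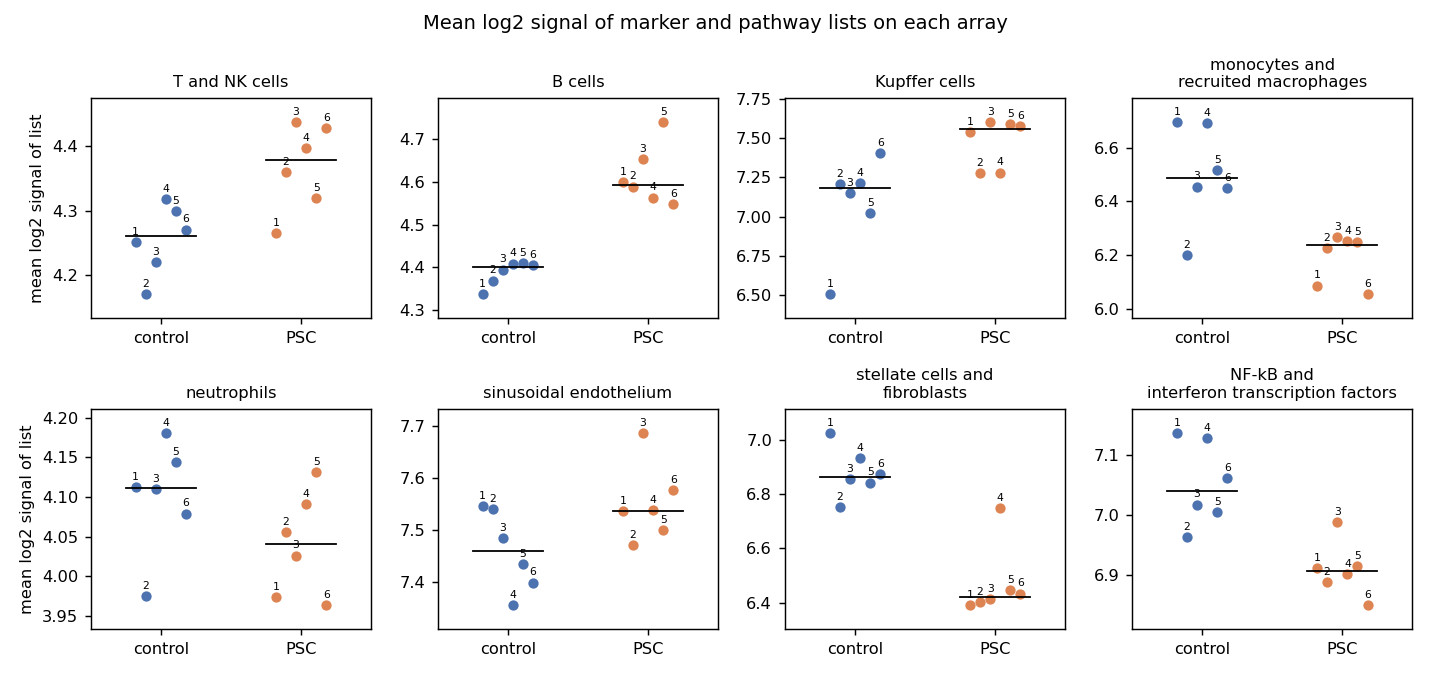
Mean log2 signal on each array of 6 cell marker lists, of the stellate list and of the NF-kB and interferon list, control arrays in blue and PSC arrays in orange, with replicate numbers, sideways spacing without meaning, and a line for the median (n = 6). Among the lists drawn, the means of B cell markers (controls up to 4.41, PSC from 4.55) and of stellate markers (controls from 6.753, PSC up to 6.749) do not overlap between the diets. No list mean was tested. Control replicates 1 and 4 are highest for recruited macrophage markers and for the NF-kB list.

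Control replicates 1 and 4 were the highest controls for Cxcl1, Cxcl16, Ccl2, Ccl3, Cxcl10 and Cxcl9. For Ccl6 and Ccl5 replicate 1 was the lowest control, at 8.16 and 6.35. Among the PSC-fed rats, replicate 6 was lowest for Cxcl1, Cxcl16 and Ccl2 (4.97, 6.80 and 5.69) and highest for Cxcl12, Ccl6 and Ccl5 (8.59, 9.46 and 7.31). Replicate 1 was second lowest for Cxcl1, Cxcl16 and Ccl2, at 5.19, 6.86 and 5.79. All of these values come from the same 12 livers, and no batch, cage or RNA integrity value per rat was at hand to set beside them.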

How the data were processed

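Liver RNA of 12 rats, 6 per diet, was measured on 1 array each. The deposited table holds log2 values for each transcript cluster, and Affymetrix Expression Console and RMA are the tools listed in the submitters' processing notes, without versions. RMA corrects background, equalises the distributions of the arrays and summarises probes, which can compress differences of dim genes. Of 30347 clusters 18511 had 1 symbol, and a gene with several was represented by the cluster with the highest mean, which left 18166 genes.

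Diets were compared with limma 3.58.1 (R 4.3.3) over all these genes, two-sided, with Benjamini-Hochberg adjustment and a threshold of 0.05; the fit was tested on simulated data. P-values measure the spread between rats, some of which may have shared a cage. Full values are given for members with an unadjusted p below 0.05 and for the 2 members with the highest mean in each role class. Called genes of the other lists are named, some of them without values, and the bile duct list is not described. Other genes given with values (Cxcl10, Cxcr4, Cxcr1, Cxcr2, Cxcr5, Ccl12, Ccr1, Pf4, Ppbp and those that fill out a list or a ligand and receptor pair) were chosen after their values were seen. The members and lists were chosen with earlier results of these data known. Lists are described by counts and medians, with no test. Alternatives were other normalizations, filters, priors, weights, a replicate block, and arrays left out. Same-numbered arrays of the 2 diets did not deviate together (correlations from -0.15 to 0.11), so the numbers were not taken as pairs. Promoters are from RefSeq (GRCr8), matched by symbol for 42 of 54 members. Figures were drawn with matplotlib 3.10.9.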

Additional observations from a re-analysis of the deposited data

Results flagged for a closer look

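In 7 of 108 groups of 6 arrays (54 members, both diets), or 6.48%, 1 array lay far from the others of its diet by Dixon's gap test, and chance alone gives about 1 in 20. For Cxcl12 it was control replicate 6, at 7.45 with the next control at 7.94. For Cxcl9 it was PSC replicate 3, at 9.75 with the next at 9.09. For Cx3cr1 it was control replicate 1, at 6.55 with the next at 5.69. For Ccl9 it was PSC replicate 5, at 11.89 with the next at 11.72. The other flags fell on the low members Ccr1l1 (control replicate 2 at 2.54), Cxcr5 (PSC replicate 6 at 3.93) and Ccl7 (PSC replicate 2 at 4.57). Without control replicate 6 the difference of Cxcl12 was 0.37 and it kept its call.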

How the results depend on the processing

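The 2 members called became 0 with all transcript clusters tested (204 clusters called, against 473 genes), 5 among genes of mean log2 4.4 or more, 5 with a trended prior, 4 with arrays centred on their medians and 5 at an adjusted p below 0.1; the members added were Cxcl1, Cxcl16 and Ccl5, or the first 2 of these after centring. Quantile normalization again, cyclic loess and array weights each gave 3 members, with Ccl5 added. Leaving out 1 array gave 0 to 4 members, 5 to 24 genes of the other lists (17 in the full comparison), 3 to 5 neighbouring pairs (5 in the full comparison) and 142 to 735 of all genes. The lists gave 7 calls with all clusters and 31 at an adjusted p below 0.1. In alternatives chosen after seeing the data, leaving out PSC replicates 2 and 5 gave 1 member (Ccl5), 6 list genes and 3 pairs, and leaving out control replicates 1 and 4 gave 0 members, 0 list genes and 0 pairs, with 25 of all genes called. In those 10 arrays Cxcl12 had 0.54 and Ccl6 0.43, with adjusted p of 0.103 and 0.133. For the pair test, fewer arrays also raise the smallest p it can give, so 0 pairs does not by itself mean weaker changes. With the replicate number as a block, which nothing in the labels makes a pairing, 0 members and 6 list genes were called. The pair test then has few arrangements, and a pair could pass only if most of the 26 reached its smallest p. Its count of 0 pairs thus says nothing about the pairs. Replicate 5 alone correlated best with its own number. The 13 members at an unadjusted p below 0.05 numbered 10 to 15 with 1 array left out. No called gene or pair reversed under any alternative run. Taking the second cluster of a member could not be run, since each member has 1. The number of arrays limits which differences of this size pass.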
